A study of Mus musculus with 16 samples.

Results

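The release of thyroid hormone from stored thyroglobulin was followed at the level of mRNA through 10 genes. They encode the receptors megalin (*Lrp2*) and sortilin (*Sort1*), the lysosomal proteases cathepsin B (*Ctsb*), D (*Ctsd*), K (*Ctsk*), L (*Ctsl*) and S (*Ctss*) and legumain (*Lgmn*), and the lysosomal membrane proteins *Lamp1* and *Lamp2*. The rows of these genes were found by an exact match of their symbols and not by their values. The genes themselves were chosen with earlier results of these data known. They are 10 of the 25611 entries of the table of gene counts, and 10 of 10 were among the 16630 genes that passed the filter on low counts.

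Whole thyroid glands of 16 mice of the C57BL/6 strain were analysed by RNA-Seq, with 4 mice for each combination of genotype (WT or *Glis3*-Pax8Cre) and diet (ND or LID, given in brackets after the genotype). ND is the normal diet NIH-31 and LID the low-iodine diet TD.95125 from Harlan. The mice were weaned at 3 weeks, were 4 weeks old (1 month by the labels), were female by the study's account and received the diet for 6 days. *Glis3*-Pax8Cre mice carry the alleles B6;129-Glis3<tm2Amj> and Pax8<tm1.1(cre)Mbu>, so that Cre made under the control of *Pax8* removes exon 5 of *Glis3*, which encodes zinc fingers 3 and 4 of this transcription factor. The labels give the controls as WT with no further allele. *Pax8* is active in follicular cells, so *Glis3* of the other cells of the gland is not targeted, and each library mixes follicular cells with parathyroid, C cells, stroma, vessels and immune cells. The counts cover the whole *Glis3* gene and do not measure the excision: *Glis3* differed by 0.077 ± 0.19 (log2, SE) between the genotypes on LID (adjusted p = 0.810) and by 0.40 ± 0.19 on ND (adjusted p = 0.157).

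Thyroglobulin is the large glycoprotein that fills the follicle and carries the hormone in its chain. Follicular cells take it up again at their apical surface and pass it to endosomes and lysosomes, where aspartic and cysteine proteases cut it until thyroxine and triiodothyronine are free to leave the cell. Low iodine intake raises thyrotropin, the pituitary hormone that stimulates the uptake and breakdown of thyroglobulin. In somewhat older mice the study also found serum thyrotropin slightly higher in *Glis3*-Pax8Cre than in WT mice on ND. On LID it was raised more in *Glis3*-Pax8Cre than in WT mice. Effects of the genotype and of thyrotropin can therefore not be told apart here. Many lysosomal genes carry the letters CACGTG near their start, the core of the element bound by TFEB and its relatives.

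Promoters of RefSeq (GRCm38.p6, 250 bases before to 50 after each start) were searched for these letters, which read the same on both strands, because members that share them can then be named beside their values. The table held 9 promoters of 8 of the 10 genes. The letters CACGTG were in 4 of the 9, in *Ctsd*, *Ctsl*, *Lamp1* and the second start of *Lgmn*, and in 7.15% of the 32851 promoters of the table. The longer TCACGTGA, which contains the shorter motif, was in 1 of the 9 (*Ctsd*) and in 0.974% of all, and the cAMP response element TGACGTCA was in 0 of the 9 and in 1.79% of all. The stretches around the matches are given 5′ to 3′ on the strand of the gene, with CACGTG in capitals, since they show how densely the motif stands in *Lamp1*.
*Lamp1*, chr8:13159086-13159160, plus strand: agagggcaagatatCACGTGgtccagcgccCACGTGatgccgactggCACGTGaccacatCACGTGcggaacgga
*Ctsd*, chr7:142387910-142387939, minus strand: cctcgcccgcgtctCACGTGacccgttgag
*Ctsl*, chr13:64370739-64370768, minus strand: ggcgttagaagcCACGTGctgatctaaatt
*Lgmn*, chr12:102439113-102439172, minus strand: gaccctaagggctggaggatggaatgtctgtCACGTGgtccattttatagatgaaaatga
The *Lamp1* stretch holds 4 matches within the 75 bases before the start and lies outside the annotated transcripts. The *Ctsd* and *Ctsl* stretches overlap an exon of another annotated transcript of GENCODE M21, and the *Lgmn* stretch lies in an intron of a longer one. A further match in *Ctsd* begins at position -245 from the start. A match is a description of the letters and not of binding.

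The libraries held 13892352 to 461077969 counted read pairs, and *Tg*, the thyroglobulin gene, took 7.87% to 29.3% of them. CPM is the count of a gene relative to the library total, which was scaled by edgeR's TMM factor. Of the 9 follicular markers 0 were at 0 in all mice, and their summed levels, which include *Tg*, were 98759 to 332600 CPM. The group medians of this sum were 263432 CPM in WT(ND) and 153567 CPM in *Glis3*-Pax8Cre(ND). On LID they were 274243 CPM in WT and 124957 CPM in *Glis3*-Pax8Cre mice. Summed thymocyte markers reached 170 to 2901 CPM in 1 mouse of each group and stayed under 45 CPM in the other 12, with the highest value in *Glis3*-Pax8Cre(ND) replicate 4. That mouse had the lowest level of its group for 8 of the 10 genes. Calls rest on edgeR's quasi-likelihood test over the 16 mice with Benjamini-Hochberg adjustment over the 16630 genes, at an adjusted p under 0.05. The 4 pairwise comparisons share groups with each other, so they are not independent. Of the 9 follicular markers 3 were higher and 3 lower between the genotypes on LID, against 14.9% and 15.4% of all genes. On ND 2 were higher and 3 lower, against 10.3% and 9.25%. With LID 5 were higher and 1 lower in WT mice, against 20.9% and 20.8%. In *Glis3*-Pax8Cre mice 3 were higher and 0 lower with LID, against 13.1% and 12.3%.

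Levels can be compared between the genes only per length, as RPKM over the longest annotated transcript with a RefSeq accession. In WT(ND) the aspartic protease *Ctsd* was the highest of the 10 genes with a mean of 499 RPKM, followed by *Ctsl* (369 RPKM), *Lamp1* (308 RPKM), *Ctsb* (194 RPKM), *Lamp2* (129 RPKM) and *Sort1* (78.0 RPKM). *Ctss* (40.4 RPKM) and *Lgmn* (37.2 RPKM) came next with ranges that overlapped, and *Lrp2* (8.93 RPKM) and *Ctsk* (4.40 RPKM) were lowest. The place of *Lamp2* rests on the length taken, as its shortest such transcript of 1769 bases in place of 3604 gives 262 RPKM, above *Ctsb*. In *Glis3*-Pax8Cre(LID) the order at the top was different. There, *Ctsl* led with 1543 RPKM (1475 to 1651 in the 4 mice), above *Ctsd* with 985 RPKM (887 to 1116) and *Ctsb* with 600 RPKM (506 to 679), and these ranges did not overlap. *Lgmn* (79.1 to 96.8 RPKM) and *Sort1* (62.7 to 87.3 RPKM) overlapped in that group.

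Of the receptors, megalin, which binds thyroglobulin at the apical surface, varied widely between mice. WT mice had 138, 110, 132 and 172 CPM of *Lrp2* on ND and 161, 217, 175 and 162 CPM on LID. *Glis3*-Pax8Cre mice had 94.8, 120, 109 and 97.9 CPM on ND and 154, 117, 209 and 143 CPM on LID. The genotypes overlapped on both diets, and the difference was -0.20 ± 0.17 (log2, SE) on LID, with a 95% interval of -0.55 to 0.16, and -0.39 ± 0.17 on ND (adjusted p = 0.114). In *Glis3*-Pax8Cre mice *Lrp2* was higher on LID than on ND by 0.56 ± 0.17 (adjusted p = 0.0228), with 1 mouse of the LID group inside the range of the ND group. Without *Glis3*-Pax8Cre(LID) replicate 3, which has the 209 CPM, this difference was 0.38 and was not called (adjusted p = 0.0884), and without *Glis3*-Pax8Cre(ND) replicate 1 it was 0.52 (adjusted p = 0.0577). In a fit of these 8 mice alone it was 0.56 (adjusted p = 0.0548), and with replicate number as a block in that fit 0.53 (adjusted p = 0.0550). Without the 4 libraries with the most thymocyte RNA it was 0.57 (adjusted p = 0.0807). In WT mice the difference with diet was 0.37 ± 0.17 (adjusted p = 0.0870).

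Sortilin carries lysosomal proteins from the Golgi and binds thyroglobulin as well. On ND *Sort1* had 587, 476, 450 and 620 CPM in the WT mice against 367, 463, 479 and 304 CPM in the *Glis3*-Pax8Cre mice, a difference of -0.40 ± 0.15 that was not called (adjusted p = 0.0660, 95% interval -0.71 to -0.090). Without WT(ND) replicate 3 or *Glis3*-Pax8Cre(ND) replicate 3 the difference was -0.46 or -0.50 and was called as lower (adjusted p = 0.0437 and 0.0430). On LID the groups overlapped, with 498 to 553 CPM in WT and 429 to 597 CPM in *Glis3*-Pax8Cre mice, and the 95% interval of the difference ran from -0.37 to 0.25. Diet differences of *Sort1* were -0.031 ± 0.15 in WT and 0.31 ± 0.15 in *Glis3*-Pax8Cre mice (adjusted p = 0.131 for the latter). So *Sort1* was called in 0 of the 4 comparisons, and its 4 group means spanned 0.41 on the log2 scale, the least of the 10 genes.

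**Figure D1:**
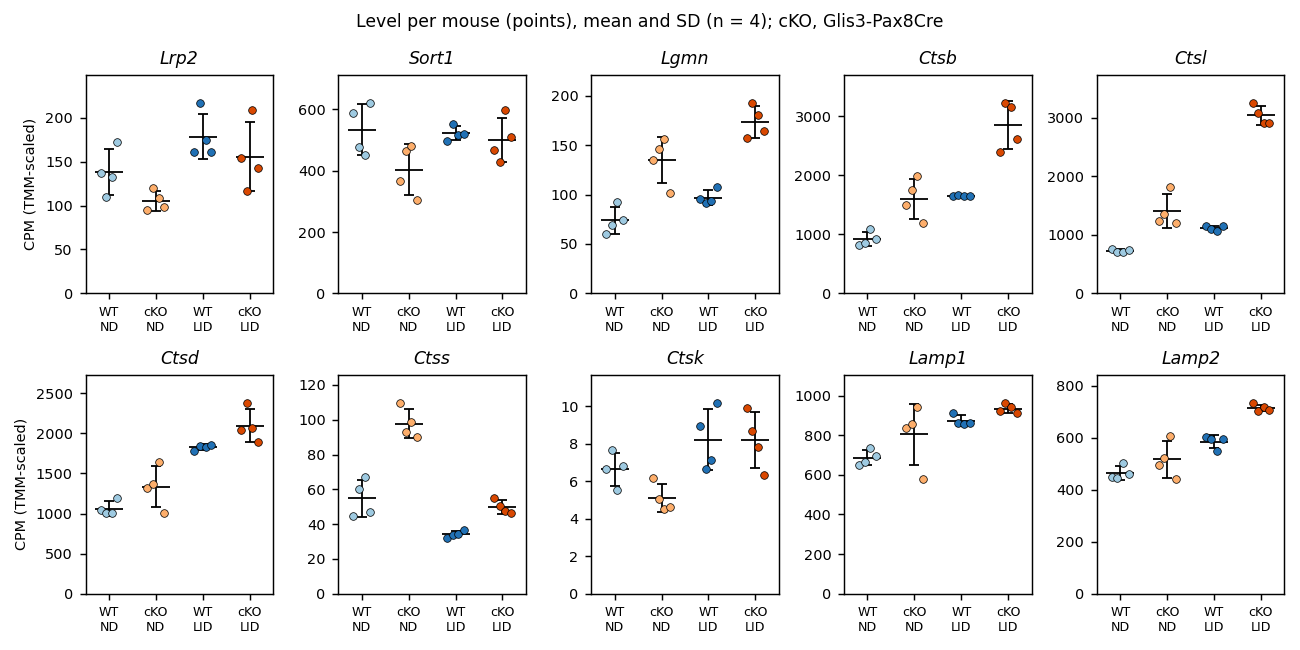
Level of each of the 10 genes in CPM (y axis, from 0) in the 4 groups (x axis; cKO stands for *Glis3*-Pax8Cre); points are mice, the horizontal bar is the mean and the error bar the SD (n = 4). *Ctsl* rises from a WT(ND) range of 703 to 757 CPM to 2908 to 3254 CPM in *Glis3*-Pax8Cre(LID), whereas the points of *Lrp2* and *Sort1* overlap between genotypes on LID.

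Cathepsin L, a cysteine endopeptidase, differed most. *Ctsl* had 757, 705, 703 and 746 CPM in WT mice on ND and 1148, 1104, 1072 and 1150 CPM in WT mice on LID. *Glis3*-Pax8Cre mice had 1237, 1362, 1822 and 1195 CPM on ND and 3254, 3084, 2908 and 2920 CPM on LID. No mouse of either *Glis3*-Pax8Cre group fell within the range of WT mice on the same diet. On LID *Ctsl* was 2.72-fold higher in *Glis3*-Pax8Cre than in WT mice (log2 1.44 ± 0.12, adjusted p = 3.92e-07), and on ND 1.93-fold higher (log2 0.95 ± 0.12, adjusted p = 9.28e-05). LID raised it 1.54-fold in WT mice (log2 0.62 ± 0.12, adjusted p = 0.000541) and 2.17-fold in *Glis3*-Pax8Cre mice (log2 1.12 ± 0.12, adjusted p = 1.16e-05). As RNA was taken from whole glands, a higher level per cell and a larger share of the cells that express a gene cannot be told apart, here and for the genes that follow.

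Cathepsin B, a cysteine protease with endopeptidase and carboxypeptidase activity, was higher with either change. *Ctsb* had 815, 852, 1094 and 914 CPM in WT mice on ND and 1647, 1666, 1654 and 1644 CPM in WT mice on LID. In *Glis3*-Pax8Cre glands the values were 1488, 1741, 1982 and 1196 CPM on ND and 2399, 3221, 3150 and 2605 CPM on LID. The ranges of the genotypes did not overlap on either diet. The fold differences were close to each other in size, 1.72 for the genotypes on LID (log2 0.78 ± 0.15, adjusted p = 0.000852), 1.74 for the genotypes on ND (adjusted p = 0.00179), 1.80 for LID in WT mice (adjusted p = 0.000319) and 1.78 for LID in *Glis3*-Pax8Cre mice (adjusted p = 0.000957). The last 773 bases of *Ctsb* are shared with *Fdft1* on the other strand, and the counting did not use strand. *Fdft1* itself differed by 0.021 in the genotype comparison on LID (adjusted p = 0.937) and was called in 0 of the 4 comparisons.

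Legumain cuts after asparagine and matures other lysosomal proteases. *Lgmn* had 59.9, 69.6, 92.4 and 74.1 CPM in WT mice on ND and 95.8, 91.4, 93.1 and 108 CPM in WT mice on LID. The *Glis3*-Pax8Cre mice had 135, 147, 156 and 102 CPM on ND and 157, 193, 180 and 164 CPM on LID. The ranges of the genotypes were separate on both diets. *Glis3*-Pax8Cre mice had 1.79-fold more on LID (log2 0.84 ± 0.14, adjusted p = 0.000265) and 1.82-fold more on ND (log2 0.87 ± 0.14, adjusted p = 0.000654). The diet differences were smaller, 0.39 ± 0.14 in WT mice (adjusted p = 0.0313) and 0.36 ± 0.14 in *Glis3*-Pax8Cre mice (adjusted p = 0.0617, not called). The call in WT mice was lost when any 1 of WT(ND) replicates 1, 2 or 4 or WT(LID) replicates 1 or 4 was left out (adjusted p 0.0530 to 0.101), and with scaling by library size alone (adjusted p = 0.194).

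Cathepsin D, the main aspartic protease of lysosomes, was called with diet in both genotypes. *Ctsd* had 1038, 1003, 1011 and 1194 CPM in WT mice on ND, against 1780, 1846, 1835 and 1855 CPM on LID, a 1.72-fold difference (log2 0.78 ± 0.13, adjusted p = 0.000154). In *Glis3*-Pax8Cre mice the values were 1321, 1367, 1643 and 1012 CPM on ND and 2046, 2375, 2072 and 1887 CPM on LID, a 1.57-fold difference (adjusted p = 0.00172). The genotype difference was not called on either diet. It was 0.20 ± 0.12 on LID, where the 4 *Glis3*-Pax8Cre mice were all above the WT mice (adjusted p = 0.264, 95% interval -0.070 to 0.46), and 0.33 ± 0.13 on ND (adjusted p = 0.0745). On ND it was 0.45 without *Glis3*-Pax8Cre(ND) replicate 4 and was then called (adjusted p = 0.00775). DESeq2 called it on ND as well (0.34, adjusted p = 0.0296). So did scaling by library size alone (0.45, adjusted p = 0.0131) and the fit without the 4 libraries with the most thymocyte RNA (0.43, adjusted p = 0.0389). On LID it was called with library size alone (0.34, adjusted p = 0.0313).

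The membrane glycoproteins *Lamp1* and *Lamp2*, which line the lysosome from within, changed least among the genes that were called. *Lamp1* had 650, 664, 737 and 698 CPM in WT mice on ND and 913, 864, 857 and 863 CPM in WT mice on LID. *Glis3*-Pax8Cre mice had 837, 855, 942 and 582 CPM on ND and 920, 961, 943 and 913 CPM on LID. It was higher on LID in WT mice by 0.35 ± 0.11 (adjusted p = 0.0233), a call that was lost without WT(ND) replicate 1 or 2 or WT(LID) replicate 1 (adjusted p 0.0570 to 0.0615). The genotype differences of *Lamp1*, 0.096 ± 0.11 on LID and 0.23 ± 0.11 on ND, were not called, but without *Glis3*-Pax8Cre(ND) replicate 4 the latter was 0.36 (adjusted p = 0.00408). *Lamp2*, which also serves chaperone-mediated autophagy, had 449, 445, 501 and 462 CPM in WT mice on ND and 604, 595, 548 and 596 CPM in WT mice on LID. In *Glis3*-Pax8Cre glands the values were 496, 522, 608 and 441 CPM on ND and 732, 702, 717 and 707 CPM on LID. It was higher on LID by 0.33 ± 0.089 in WT (adjusted p = 0.00703) and by 0.47 ± 0.089 in *Glis3*-Pax8Cre mice (adjusted p = 0.00158). The genotypes differed by 0.29 ± 0.089 on LID (adjusted p = 0.0230), a call lost without WT(LID) replicate 2 or 3 or *Glis3*-Pax8Cre(LID) replicate 1 or 3 (adjusted p 0.0502 to 0.0909), and by 0.15 ± 0.089 on ND (not called). The 2 genes were the pair closest in pattern among the 10, with a root mean square difference of 0.12 in log2 CPM over the 16 mice.

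**Figure D2:**
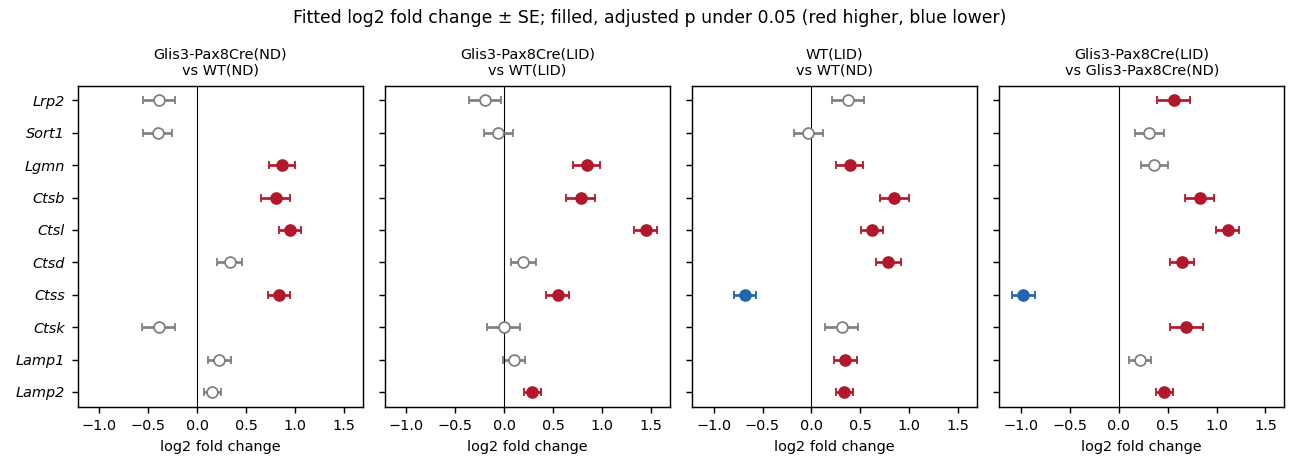
Fitted log2 fold change (x axis) of the 10 genes (y axis) in the 4 comparisons, with SE from edgeR's quasi-likelihood fit of 16 mice; filled points were called (red higher, blue lower) and open points were not. *Ctsl*, *Ctsb*, *Lgmn* and *Ctss* lie to the right of 0 in both genotype comparisons, and *Ctss* alone is called to the left of 0 with diet (-0.68 and -0.97).

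Cathepsin S, which acts mostly in antigen-presenting cells, was the one gene of the 10 called in opposite directions by genotype and by diet. *Ctss* had 44.7, 60.4, 67.1 and 46.8 CPM in WT mice on ND and 32.3, 33.7, 34.0 and 36.5 CPM in WT mice on LID. The *Glis3*-Pax8Cre mice had 109, 93.2, 98.4 and 90.3 CPM on ND and 55.1, 50.7, 47.4 and 46.1 CPM on LID. The 4 WT(LID) mice were below the mice of the other 3 groups. *Ctss* was higher in *Glis3*-Pax8Cre mice 1.79-fold on ND (log2 0.84 ± 0.12, adjusted p = 0.000232) and 1.46-fold on LID (log2 0.55 ± 0.12, adjusted p = 0.00204). On LID it fell by 0.68 ± 0.12 on the log2 scale in WT mice (adjusted p = 0.000246) and by 0.97 ± 0.12 in *Glis3*-Pax8Cre mice (adjusted p = 3.65e-05).

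Macrophage markers were read beside *Ctss*. Their summed level (12 genes) was 295 to 446 CPM for WT and 576 to 646 CPM for *Glis3*-Pax8Cre mice on ND, and 406 to 472 CPM against 389 to 507 CPM on LID, with 0 of the 12 at 0 in all mice. In the genotype comparison on ND 10 of the 12 were called as higher, against 10.3% of all genes. The median difference of the 12 was 0.71 beside 0.84 for *Ctss*. In the genotype comparison on LID 1 was called as higher and 1 as lower, against 14.9% and 15.4% of all genes. The median was 0.075 there, beside 0.55 for *Ctss*. With LID 5 were higher and 1 lower in WT mice (median -0.068), against 20.9% and 20.8% of all genes. In *Glis3*-Pax8Cre mice 0 were higher and 7 lower with LID (median -0.48), against 13.1% and 12.3% of all genes. Of 6 dendritic cell markers 0 were called between the genotypes, with medians of -0.13 on ND and -0.24 on LID. With LID 1 of the 6 was lower in either genotype (medians -0.063 in WT and -0.38 in *Glis3*-Pax8Cre mice). Of 4 B cell markers 1 was higher between the genotypes on ND (median 0.82) and 0 were called on LID (median 0.49). With LID 0 of the 4 were called in WT mice and 1 was lower in *Glis3*-Pax8Cre mice. The part of these cell types in the differences of *Ctss* was not tested. The genes closest to *Ctss* in pattern over the 16 mice were *Aif1*, *Mpeg1* and *H2-Aa*, with root mean square differences of 0.15, 0.19 and 0.20 in log2 CPM.

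**Figure D3:**
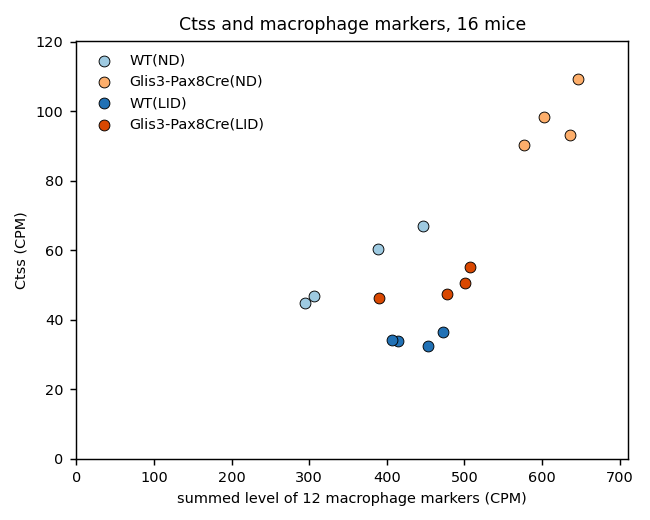
*Ctss* in CPM (y axis) against the summed level of 12 macrophage markers in CPM (x axis) in 16 mice, coloured by group; both axes start at 0. The *Glis3*-Pax8Cre(ND) mice lie highest on both axes (576 to 646 and 90.3 to 109 CPM), while the WT(LID) and WT(ND) mice overlap along the x axis but not along the y axis.

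Cathepsin K, a collagen-cleaving cysteine protease known from osteoclasts and present in thyroid, was the lowest of the 10 genes. *Ctsk* had 6.64, 7.64, 5.51 and 6.79 CPM in WT mice on ND and 8.97, 6.64, 7.14 and 10.2 CPM in WT mice on LID. *Glis3*-Pax8Cre mice had 6.15, 5.07, 4.52 and 4.62 CPM on ND and 9.91, 8.66, 7.81 and 6.35 CPM on LID. In *Glis3*-Pax8Cre mice it was higher on LID by 0.69 ± 0.17 (adjusted p = 0.00788), with separate ranges, and after the libraries were thinned at random to the shallowest the difference of 0.66 was not called (adjusted p = 0.150). The genotype difference on LID was -0.0077 ± 0.17 (95% interval -0.36 to 0.35), and on ND -0.39 ± 0.17 (adjusted p = 0.115). Of 6 osteoclast markers 4 could be tested, and these 4 were higher in *Glis3*-Pax8Cre than in WT mice on LID with a median of 1.37, against 14.9% of all genes. On ND 1 of the 4 was called as higher, against 10.3% of all genes, and 0 as lower. With LID 0 were higher and 1 was lower in WT mice, against 20.9% and 20.8% of all genes. In *Glis3*-Pax8Cre mice 0 and 0 were called with LID, against 13.1% and 12.3%. Summed, the 6 markers had 64.3 to 66.7 CPM in the WT and 113 to 154 CPM in the *Glis3*-Pax8Cre mice on LID, and 55.9 to 124 CPM and 144 to 206 CPM on ND. Whether these genes mark osteoclasts in this gland was not tested. Of 7 fibroblast markers 0 were higher and 3 lower between the genotypes on LID, and 0 and 2 on ND. With LID 3 of the 7 were higher and 2 lower in WT mice, and 3 and 1 in *Glis3*-Pax8Cre mice. The part of either set of markers in the level of *Ctsk* was not tested.

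Over the 10 genes, the genotype comparison on LID called proteases as higher in *Glis3*-Pax8Cre mice and called neither receptor. *Ctsl*, *Lgmn*, *Ctsb*, *Ctss* and *Lamp2* were called as higher in *Glis3*-Pax8Cre than in WT mice, 5 of the 10 genes, against 14.9% of all genes tested. None of the 10 was called as lower by edgeR, against 15.4% of all, and 0 had an unadjusted p under 0.05 in that direction. In 7 of the 10 the 4 *Glis3*-Pax8Cre mice were all above the 4 WT mice, against 17.7% of all genes, although for *Lamp1* the gap was that of 913 against 913 CPM to the nearest whole number. The median difference of the 10 genes was 0.24, and that of all genes 0.012. Without the 4 libraries with the most thymocyte RNA 4 of the 10 were called, with *Lamp2* lost (adjusted p = 0.0688).

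On ND the same comparison of genotypes gave 4 of the 10 genes as higher in *Glis3*-Pax8Cre mice, *Ctsl*, *Lgmn*, *Ctss* and *Ctsb*, against 10.3% of all genes. None of the 10 was called as lower by edgeR, against 9.25% of all, while *Sort1*, *Lrp2* and *Ctsk* had unadjusted p of 0.0150, 0.0341 and 0.0342 in that direction and DESeq2 called 1 of them, *Sort1*. Without the 4 libraries with the most thymocyte RNA *Ctsd* and *Lamp1* were called too, which made 6. With scaling by library size alone 7 were called.

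LID in WT mice raised *Ctsb*, *Ctsd*, *Ctsl*, *Lgmn*, *Lamp1* and *Lamp2*, 6 of the 10 genes, against 20.9% of all genes, and lowered 1, *Ctss*, against 20.8% of all. With scaling by library size alone *Lgmn*, *Lamp1* and *Lamp2* were not called, which left 3. LID in *Glis3*-Pax8Cre mice raised *Ctsl*, *Ctsb*, *Ctsk*, *Ctsd*, *Lrp2* and *Lamp2*, 6 of the 10 against 13.1% of all genes, and lowered *Ctss*, 1 of the 10 against 12.3% of all.

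Whether the diet acted differently in the 2 genotypes was tested by the interaction of genotype and diet. edgeR called 0 of the 10 genes as higher and 0 as lower, against 4.43% and 7.41% of all genes. The largest value was that of *Ctsl*, 0.49 ± 0.16 (95% interval 0.15 to 0.84, adjusted p = 0.0608). It was the 1 gene of the 10 with an unadjusted p under 0.05 in edgeR's quasi-likelihood test. DESeq2 called it (0.48, adjusted p = 0.0212), and it was called without *Glis3*-Pax8Cre(ND) replicate 3 (0.65, adjusted p = 0.00265). For *Ctsb* and *Lgmn* the interaction was -0.019 ± 0.21 and -0.026 ± 0.19, with 95% intervals of -0.46 to 0.42 and -0.44 to 0.38.

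The level of a protease per lysosomal membrane protein was read from the counts of each library, which removes the scaling between libraries. This ratio was chosen after the values had been seen, and it moves with *Lamp1* as well. *Ctsl* had medians of 107 (WT) and 176 (*Glis3*-Pax8Cre) counts per 100 counts of *Lamp1* on ND and of 127 and 320 on LID, and the lowest *Glis3*-Pax8Cre(LID) mouse had 308, above the 206 of the highest *Glis3*-Pax8Cre(ND) mouse. *Ctsb* had medians of 130, 205, 192 and 310 in the same order. The medians of *Lgmn* differed between the genotypes more than between the diets, at 10.6, 16.8, 10.7 and 18.5. *Ctsd* separated by diet, with medians of 155, 167, 214 and 221, and its genotypes overlapped on both diets. Set against its substrate, *Ctsl* had medians of 2.83 (WT) and 10.04 (*Glis3*-Pax8Cre) counts per 1000 counts of *Tg* on ND and of 4.41 and 29.5 on LID. *Tg* itself was lower in *Glis3*-Pax8Cre mice, by 1.28 ± 0.23 on the log2 scale on LID (adjusted p = 0.000683) and by 0.81 ± 0.23 on ND (adjusted p = 0.0239).

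**Figure D4:**
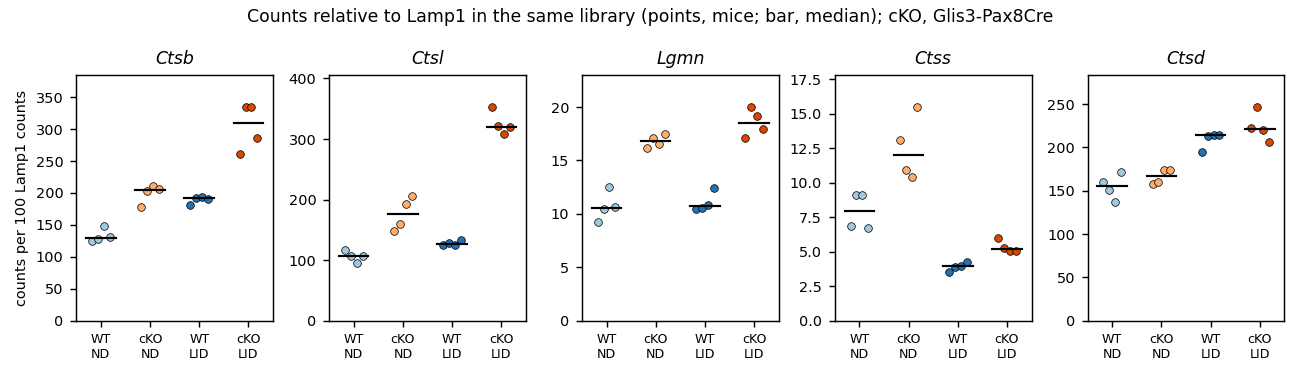
Counts of 5 proteases per 100 counts of *Lamp1* in the same library (y axis, from 0) in the 4 groups (x axis; cKO stands for *Glis3*-Pax8Cre); points are mice and bars medians. *Lgmn* lies at medians of 10.6 and 10.7 in the WT groups and 16.8 and 18.5 in the *Glis3*-Pax8Cre groups, while *Ctsd* lies at 155 and 167 on ND and 214 and 221 on LID.

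The counts of called genes in the lists that follow are to be read against the shares of all genes called as higher and lower, 14.9% and 15.4% between the genotypes on LID, 10.3% and 9.25% on ND, 20.9% and 20.8% with LID in WT mice and 13.1% and 12.3% with LID in *Glis3*-Pax8Cre mice. The pathway around these genes was read from lists of 122 further genes, of which 120 passed the filter (*Atp6v0c* and *Amn* did not). Luminal hydrolases and their activator proteins break down the lipids and sugar chains that reach the lysosome. Of 32, 17 were higher and 2 lower in *Glis3*-Pax8Cre than in WT mice on LID, with a median of 0.38, and on ND 18 were higher and 0 lower, with a median of 0.35. In a fit of only the 8 mice on ND 12 were higher and 0 lower, and 8 and 0 with the replicate block. Replicate numbers did not pair the mice in this comparison. In a fit of only the 8 mice on LID 20 were higher and 2 lower. With LID 22 were higher and 0 lower in WT mice and likewise 22 and 0 in *Glis3*-Pax8Cre mice. *Gm2a*, the activator of hexosaminidase A, had on LID 93.3 to 104 CPM in WT and 297 to 359 CPM in *Glis3*-Pax8Cre mice, a 3.25-fold difference (log2 1.70 ± 0.14, adjusted p = 4.14e-07). *Psap*, which encodes the saposin precursor, had 4507 to 5040 CPM and 10962 to 13018 CPM in these groups (2.51-fold, adjusted p = 4.87e-06). Of the 2 that were lower, *Hexa*, a subunit of hexosaminidase A, was at -0.51 ± 0.13. *Npc2*, which binds cholesterol, was 3.96-fold higher in WT(LID) than in WT(ND).

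Other lysosomal proteases were higher or not called in the genotype comparisons, 4 of 14 higher and 0 lower on LID and 5 and 0 on ND. *Napsa*, an aspartic protease, had on ND 275 to 472 CPM in WT and 633 to 1213 CPM in *Glis3*-Pax8Cre mice and on LID 875 to 947 and 2227 to 2395 CPM, and *Ctsc*, which activates granule proteases, was higher by 0.61 ± 0.10 on LID. With LID 6 of the 14 were higher and 1, *Cpq*, lower in WT mice, and 9 and 2 in *Glis3*-Pax8Cre mice, with *Ctsa*, the protective protein of 2 glycosidases, higher by 1.74 ± 0.12 in WT mice. Of 4 cathepsin inhibitors, *Cst3* (cystatin C) was higher in *Glis3*-Pax8Cre mice by 0.57 ± 0.14 on LID and 0.71 ± 0.14 on ND. *Cst6*, which inhibits legumain and cathepsin L, had on ND 17.0 to 52.9 CPM in WT and 69.2 to 128 CPM in *Glis3*-Pax8Cre mice, and 85.2 to 102 and 94.9 to 129 CPM on LID, with an interaction of -1.67 ± 0.41 (adjusted p = 0.0164).

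Calls among the subunits of the proton pump depended on the scaling. Of 14 subunits of the V-ATPase, which acidifies the lysosome, 11 were higher and 0 lower in WT(LID) than in WT(ND), and 8 and 0 in *Glis3*-Pax8Cre mice. With scaling by library size alone 4 were called in each. Between the genotypes 3 were higher and 3 lower on LID, which became 8 and 1 with library size alone, with *Atp6v1c1* at 0.75 ± 0.10 and the catalytic subunit gene *Atp6v1a* at -0.67 ± 0.091. Of 16 other lysosomal membrane proteins 1 was higher and 3 were lower in *Glis3*-Pax8Cre than in WT mice on LID (median -0.0054), and 0 and 1 on ND. Of 12 genes that sort lysosomal enzymes 3 were higher and 1 lower between the genotypes on LID, among them *Gnptg*, a subunit of the enzyme that makes the mannose 6-phosphate tag, at 0.55 ± 0.12. *Igf2r*, a receptor of that tag, was 1.80-fold higher in WT(LID) than in WT(ND).

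Of 16 genes of endocytic uptake 2 were higher and 3 lower between the genotypes on LID (median -0.055), shares near those of all genes. With LID in WT mice 4 were higher and 0 lower, which became 1 and 3 with scaling by library size alone. *Lrpap1*, the chaperone that escorts megalin and its relatives to the surface, had on LID 160 to 170 CPM in WT and 250 to 310 CPM in *Glis3*-Pax8Cre mice, a 1.69-fold difference (adjusted p = 0.000350). It was also the gene closest to *Lgmn* in pattern over the 16 mice, with a root mean square difference of 0.12 in log2 CPM. *Lrp1*, a receptor related to megalin, was lower there, at -1.04 ± 0.22 on the log2 scale. The genes closest to *Ctsb* were *Fuca1*, *Tmem9* and *Ppib* (0.14, 0.15 and 0.15), and those closest to *Ctsl* were *Mesd*, *Tmprss2* and *Fuca1* (0.16, 0.19 and 0.24). *Fuca1*, the lysosomal fucosidase, is one of the 32 hydrolases, and *Mesd* is a chaperone of receptors of the megalin family.

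Of 8 regulators of lysosomal genes 0 were higher and 2 lower between the genotypes on LID, 0 and 2 on ND, 1 and 3 with LID in WT mice and 0 and 0 with LID in *Glis3*-Pax8Cre mice (edgeR). *Rragd* differed most. It encodes a Rag GTPase that brings mTORC1 to the lysosome. In WT mice *Rragd* had 63.8 to 89.8 CPM on ND and 226 to 249 CPM on LID, and in *Glis3*-Pax8Cre mice 34.8 to 45.1 CPM on ND and 29.9 to 37.7 CPM on LID, so that it was raised 3.04-fold by LID in WT mice (adjusted p = 9.95e-08). In *Glis3*-Pax8Cre(LID) it was lower than in WT(LID), at -2.77 ± 0.12 on the log2 scale (adjusted p = 1.19e-09), and the interaction was -1.74 ± 0.17 (adjusted p = 9.37e-06). On ND it was lower in *Glis3*-Pax8Cre than in WT mice as well, at -1.04 ± 0.12 (adjusted p = 4.84e-05). Summed endothelial markers, read beside it, had 1225 to 1390 CPM in WT(LID) and 459 to 580 CPM in WT(ND). In *Glis3*-Pax8Cre mice they had 598 to 832 CPM on ND and 552 to 712 CPM on LID. Of these 5 markers, 0 of which were at 0 in all mice, 5 were higher with LID in WT mice and 4 were lower between the genotypes on LID. Between the genotypes on ND 2 were higher and 0 lower, the opposite direction to *Rragd*, and with LID in *Glis3*-Pax8Cre mice 0 and 2. Their part in the level of *Rragd* was not tested. *Tfeb* was lower, at -0.46 ± 0.13, in the same genotype comparison (adjusted p = 0.0165). *Mitf*, a relative of *Tfeb*, had 6.57 to 11.2 CPM in WT(ND) and at most 6.66 CPM in the other groups, and was lower with LID in WT mice, at -0.80 ± 0.22 (adjusted p = 0.00904), and between the genotypes on ND, at -0.93 ± 0.22 (adjusted p = 0.00907). *Flcn*, which encodes folliculin, a regulator of Rag GTPases, was lower with LID in WT mice, at -0.57 ± 0.11.

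Of 4 genes for the exit and reuse of the products 1 was higher and 3 were lower with LID in WT mice (median -0.74). With LID in *Glis3*-Pax8Cre mice 1 was higher and 2 were lower (median -0.61), and between the genotypes 0 and 1 on either diet. The gene that was higher, *Iyd*, recovers iodide from the iodotyrosines set free with the hormone. It was 1.75-fold higher on LID in WT and 1.40-fold in *Glis3*-Pax8Cre mice, with no call between the genotypes.

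**Figure D5:**
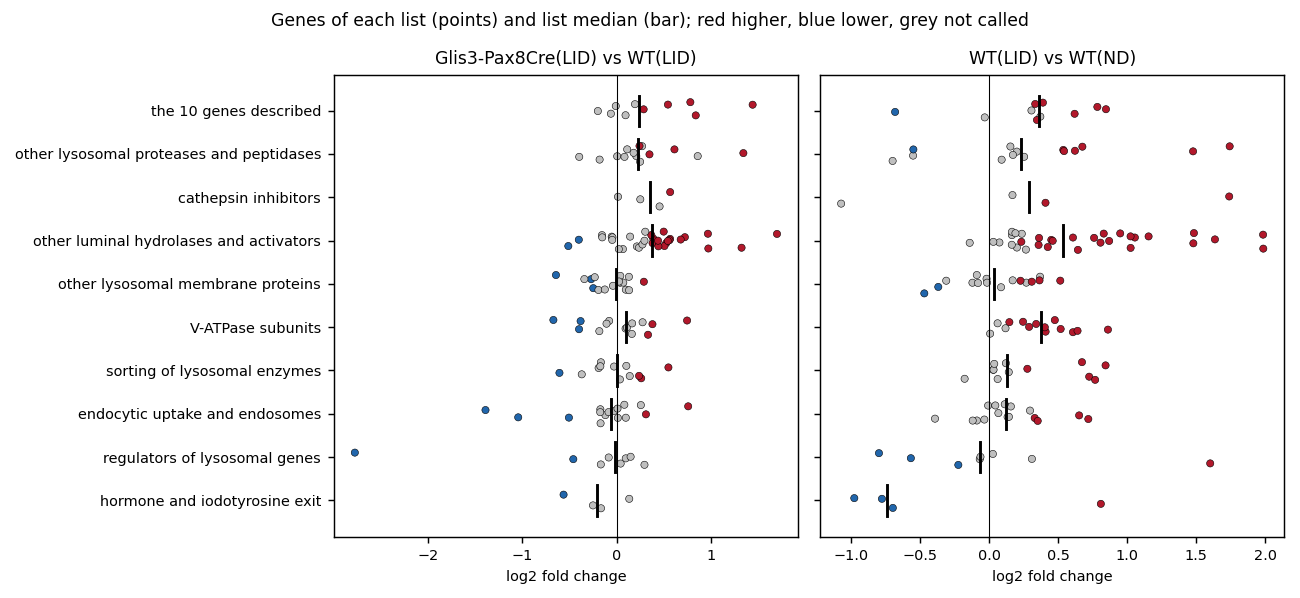
Fitted log2 fold change (x axis) of each gene (points) of the 10 lists (y axis) between the genotypes on LID (left) and between the diets in WT mice (right); bars are list medians, red points were called as higher, blue as lower, grey were not. The point at -2.77 on the left is *Rragd*, and the list of luminal hydrolases has medians of 0.38 and 0.53.

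Across the 120 further genes 31 were higher and 15 lower between the genotypes on LID, 31 and 6 on ND, 56 and 9 with LID in WT mice and 53 and 10 with LID in *Glis3*-Pax8Cre mice. The median was between 0.097 and 0.24 in these 4 comparisons. With scaling by library size alone these counts were 50 and 10, 46 and 4, 36 and 18, and 39 and 16 in the same order. With LID in *Glis3*-Pax8Cre mice a fit of the 8 mice alone gave 35 and 3, and the replicate block gave 38 and 4 in that fit and 53 and 9 over the 16 mice. In the fit of 8 mice with the block 4 V-ATPase subunits were higher in that comparison and 0 of the other lysosomal membrane proteins were called, against 4 higher and 3 lower over the 16 mice without it. Between the genotypes on ND a fit of their 8 mice gave 21 further genes as higher and 2 as lower. With the block it gave 16 and 2, although replicate numbers did not pair the mice there. Without the block fits of 8 mice gave 35 and 16 between the genotypes on LID and 67 and 11 with LID in WT mice. In the interaction 0 were higher and 10 lower (edgeR), against 4.43% and 7.41% of all genes, among them *Rragd*, *Cst6*, *Npc2* at -1.12 ± 0.26, *Atp6v1a* at -0.74 ± 0.13 and *Ctsa* at -0.67 ± 0.17.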

How the data were processed

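RNA-Seq of 16 thyroid glands was analysed, 4 for each combination of genotype and diet. The authors retained read pairs whose mean base quality exceeded 20, aligned them with STAR 2.5 to the mm10 build and counted them per RefSeq gene with featureCounts 1.5.0-p1 without regard to strand. The deposited table holds raw counts per gene, which the authors had not normalized. They compared groups with DESeq2. The 10 genes and the lists around them were chosen with earlier results of these data known. Instruments are named in the study but not per library, so no term for them was fitted. The labels number the samples as replicates and the study gives them as mice, and 24 of 24 within-group pairs of libraries differed by a chi-squared over degrees of freedom of 33.0 or more.

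Counts were filtered with filterByExpr, scaled by TMM and fitted with 1 mean per group by edgeR 4.0.16 (glmQLFit, robust; glmQLFTest) in R 4.3.3, with Benjamini-Hochberg adjustment over 16630 genes. SE are the log2 fold change over the root of the F value, and 95% intervals from them with the degrees of freedom of the fit. From each list the text names up to 2 called genes per direction and comparison with the largest difference and a mean of at least 5 CPM, and as nearest in pattern the 3 genes with the smallest root mean square difference of centred log2 CPM. The smallest library limits the precision most for *Ctsk*. Some genes that this rule names are not reported here. The procedure was tested on simulated data. Alternatives were DESeq2 1.42.0, other scalings and filters, a replicate block, stricter thresholds and each mouse left out in turn, and, chosen after the data were seen, thinned libraries and the 4 libraries with the most thymocyte RNA left out.

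Replicate numbers are shared between groups. Deviations of same-numbered mice from their group means correlated at 0.21 to 0.65 in all 4 pairs of *Glis3*-Pax8Cre(LID) and *Glis3*-Pax8Cre(ND), so a block is given there. In the other comparisons they correlated at -0.52 to 0.14, and the numbers did not pair the mice. Where counts with the block are given for those comparisons, it takes up degrees of freedom without a pairing.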

Additional observations from a re-analysis of the deposited data

Results flagged for a closer look

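Each of the 10 genes was examined in each of the 4 groups for a mouse far from the other 3, by the gap to the nearest mouse over the range of the group, compared with Dixon's 95% critical value. Of these 40 sets 2 passed, close to the 1 in 20 that chance gives. *Lamp1* was 913 CPM in WT(LID) replicate 1, above the 857 to 864 CPM of the other mice of the group (ratio 0.867). *Lamp2* was 548 CPM in WT(LID) replicate 3, below the 595 to 604 CPM of the others (ratio 0.840). This mouse is also the one of its group with thymocyte markers, 242 CPM in sum against 4.56 to 4.92 CPM in the others, and their part in the low value was not tested. Without it the genotype difference of *Lamp2* on LID was 0.25 and was not called.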

How the results depend on the processing

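The 23 calls of the 10 genes in the 4 comparisons were refitted 621 times, with 0 changes of direction and 24 losses of the call. With calls limited to a fold over 2 and an adjusted p under 0.01, the genes called as higher were 1 between genotypes on LID, 0 between genotypes on ND, 0 with diet in WT and 1 with diet in *Glis3*-Pax8Cre mice, and those called as lower with diet were 0 in both genotypes. Scaling by library size alone moved the median of all genes by 0.15, 0.12, -0.16 and -0.13 in these 4 comparisons. It gave 6 higher between genotypes on LID, with *Ctsd* added (adjusted p = 0.0313). On ND it gave 7 higher between genotypes, with diet in WT mice 3, and in the interaction 1. DESeq2 gave 5 higher between genotypes on ND, with *Ctsd* added (adjusted p = 0.0296), and 1 lower (*Sort1*). With diet in *Glis3*-Pax8Cre mice it gave 7 higher, with *Lgmn* added (adjusted p = 0.0490), and in the interaction 1 higher (*Ctsl*). With single mice left out the count of genes lower between genotypes on ND and the count higher in the interaction ran from 0 to 1.

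Signs changed only among values near 0 that were not called. For *Ctsk* between genotypes on LID they became 0.13 (library size alone), 0.15 (thinned) and 0.034 (thymocyte libraries left out), and -0.11 to 0.11 with single mice left out. *Sort1* in that comparison became 0.083 with library size alone and ran from -0.16 to 0.0082 with single mice left out, and its diet difference in WT mice became 0.024 without the thymocyte libraries and ran from -0.096 to 0.053. The interaction of *Ctsb* became 0.015 with library size alone and 0.014 when thinned, and ran from -0.15 to 0.10; that of *Lgmn* became 0.0052 and 0.011 in these and ran from -0.17 to 0.052. The cause was not tested.

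With the replicate number as a block, 5 genes were called as higher between genotypes on LID, 4 on ND, 6 with diet in WT mice and 6 with diet in *Glis3*-Pax8Cre mice, as without it. In fits of only the 8 mice of that comparison *Lrp2* was lost both without the block and with it, which left 5.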

Other observations

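The share of genes with CACGTG in a promoter differed between the lists around lysosomal proteolysis, as a description without a test. It was 60% of the 10 genes with a promoter entry among those that sort lysosomal enzymes, 36.4% of 11 V-ATPase subunit genes, 33.3% of 9 other proteases, 24% of 25 luminal hydrolases and 0 of 2 cathepsin inhibitors, against 8.09% of all 27025 symbols in the table. It was 28.6% of 7 regulators, 23.1% of 13 other lysosomal membrane proteins, 18.8% of 16 genes of endocytic uptake and 0 of 3 exit genes. With LID in WT mice 5 of the 12 sorting genes, 11 of the 14 V-ATPase subunits, 6 of the 14 other proteases, 22 of the 32 hydrolases and 2 of the 4 inhibitors were higher, against 20.9% of all genes tested. Among the 8 regulators 1 was higher and 3 were lower, and among the 16 other membrane proteins 4 and 2. Of the 16 endocytic genes 4 were higher and 0 lower, and of the 4 exit genes 1 and 3. The share of all genes called as lower was 20.8%.

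The cathepsin inhibitor gene *Cst6* and the regulator gene *Rragd* were each most apart from the other groups in WT mice, on ND and on LID. Mean *Cst6* was lowest in WT mice on ND (28.3 CPM), beside 94.6 CPM in WT mice on LID and 107 and 113 CPM in *Glis3*-Pax8Cre mice on ND and LID. Mean *Rragd* was highest in WT mice on LID (243 CPM), beside 79.8 CPM in WT mice on ND and 38.9 and 35.4 CPM in *Glis3*-Pax8Cre mice on ND and LID.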
